A study of Homo sapiens with 35 samples.

Results

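The genes described here are the 158 genes named ZNF plus a number that lie on the long arm of human chromosome 19 (19q). They were taken from the annotation rows of the deposited count tables by name, by a first listed position on chromosome 19 and by a lowest start of at least 25000000 (hg38). They make up 158 of the 59428 gene rows, 158 of the 478 numbered ZNF rows of the genome and 158 of the 242 on chromosome 19. No measured value entered the choice. A further 36 rows of the same span start with ZNF but carry another ending, such as an antisense transcript or a readthrough, and were left out. The 1396 rows of the span whose name does not start with ZNF served as the comparator.

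The study measured poly(A) RNA in 35 libraries of 4 human acute myeloid leukaemia cell lines, in 13 groups. U937, a monocytic line, was given as SUV39H1/2 DKO (both histone methyltransferase genes targeted by guide RNAs), SUV39H1 SKO (SUV39H1 alone) and sgControl (control guide), with 3 libraries each. The same 3 U937 genotypes were also given after treatment with TPA, a phorbol ester used to drive U937 cells towards macrophages, with 3 libraries each; no dose or time is stated in the labels. THP-1, another monocytic line, was given as DKO, SKO and sgControl with 3 libraries each. MOLM-13 was given as SKO and sgControl, and OCI-AML-3 as DKO and sgControl, with 2 libraries each. The library names in the header of the first count table place the THP-1 SKO and sgControl libraries in clone 1 and the U937 DKO libraries in clone 3, so that at least these groups are each 1 clone. The names of the THP-1 DKO libraries carry another digit string, which may be a date, than those of their sgControl. U937 DKO names carry no such string, while U937 SKO and sgControl names do. No label says what the strings stand for. In these lines the DKO genotype, its clone and any batch behind these strings cannot be told apart. Nor can the THP-1 SKO genotype and its clone, since SKO and sgControl are each 1 clone there. No label says that replicates were separate cultures, so every p-value rests on how far these libraries differ from each other, and that spread may be technical only.

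Each library held between 31985767 and 61178704 counted reads, of which between 0.0877% and 0.248% fell on the 158 genes. SUV39H1 transcript was not lower in every group labelled as a knockout. It averaged 83 ± 0.587 CPM (read counts scaled to a common library size) in U937 DKO, 113 ± 3.58 CPM in U937 SKO and 66.3 ± 3.57 CPM in U937 sgControl, and 55.2 ± 0.647 CPM in THP-1 DKO, 95.5 ± 5.25 CPM in THP-1 SKO and 35.3 ± 2.88 CPM in THP-1 sgControl (SD, n = 3 each). In the other lines it averaged 7.63 ± 0.626 CPM in MOLM-13 SKO and 28.7 ± 1.54 CPM in MOLM-13 sgControl, and 3.48 ± 1.05 CPM in OCI-AML-3 DKO and 35.8 ± 1.34 CPM in OCI-AML-3 sgControl (SD, n = 2 each). With TPA it averaged 22.3 ± 0.291 CPM in U937 DKO, 53.5 ± 2.83 CPM in U937 SKO and 36.7 ± 1.08 CPM in U937 sgControl (SD, n = 3 each). SUV39H2 was lower in each DKO group than in its sgControl, with log2 fold changes between -1.11 in THP-1 and -0.33 in OCI-AML-3. It was also lower in the untreated SKO groups, where it was not targeted. In MOLM-13 SKO the log2 fold change was -1.15 ± 0.082 (edgeR adjusted p = 1.3e-13). SUV39H2 averaged 20.5 ± 1.02 CPM in THP-1 SKO, against 31.8 ± 0.882 CPM in THP-1 sgControl (SD, n = 3 each). It averaged 35.6 ± 0.889 CPM in U937 SKO, against 43 ± 2.14 CPM in U937 sgControl (SD, n = 3 each). With TPA it averaged 20.8 ± 0.408 CPM in U937 SKO and 20.2 ± 0.723 CPM in U937 sgControl (SD, n = 3 each). A transcript count does not show whether a guide changed the protein, so the groups are called by their labels throughout. Summed over each list, 10 myeloid genes held 929 to 10100 CPM, 5 T and B lymphoid genes 0.411 to 11.7 CPM, 4 erythroid genes 0 to 2.89 CPM and 5 epithelial and stromal genes 68.6 to 677 CPM in the 35 libraries. The last list includes PECAM1, which is also found on blood cells and whose group means ran between 69.6 and 646 CPM. In bulk samples, fewer cells that express a gene and less of its RNA per cell cannot be told apart.

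Most numbered ZNF genes of 19q encode proteins with a row of C2H2 zinc fingers, each finger reading a few bases of DNA. Many also carry a KRAB domain at the front of the protein. KRAB binds the co-repressor TRIM28 (also called KAP1), which brings the histone methyltransferase SETDB1 and the mark H3K9me3 to the bound site. Many KRAB zinc finger proteins bind transposable elements and help to silence them. The ZNF gene clusters are themselves known to carry H3K9me3 over their gene bodies, in particular over the exons that encode the fingers. SUV39H1 and SUV39H2 deposit H3K9me3 as well, mainly in pericentromeric heterochromatin and over repeats.

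The 158 genes fell into 5 subclusters when a gap of over 1 Mb between neighbours was used as a border, and 8 lay outside them. The first subcluster (S1) held 5 genes from ZNF302 to ZNF792 at chr19:34677639-34964229. The second (S2) held 25 genes from ZNF565 to ZNF573 at chr19:36182276-37817300. The third (S3) held 24 genes from ZNF575 to ZNF296 at chr19:43525497-45076587, and the fourth (S4) held 39 genes from ZNF175 to ZNF331 at chr19:51571283-53580269. The fifth (S5), which runs towards the end of the arm, held 57 genes from ZNF628 to ZNF446 at chr19:55476617-58481230. The 8 genes outside were ZNF536, ZNF507, ZNF546, ZNF574, ZNF526, ZNF541, ZNF114 and ZNF473. All 158 were annotated as protein coding, and a KRAB A-box pattern was found in the predicted protein of 122 of them, among these 37 of the 39 genes of S4. The median number of fingers by subcluster ran between 11 in S5 and 13 in S1 and S4. The interval of 113 of the 158 overlapped that of another gene row, and 80 of these overlapped a row on the opposite strand. The counting used no strand option where the file header states one, so reads of such pairs cannot be told apart; closely related ZNF genes may also have lost reads that map to several of them.

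Promoter sequences from RefSeq (GRCh38.p14, from 250 bases before the gene start to 50 after) were found for 137 of the 158 genes. A RefSeq start can differ from the lowest start of the counted gene row. For ZNF420 that row starts at 37007857, upstream of its promoter range. Promoter sequences are printed for 6 genes whose levels differ between lines or genotypes in what follows. They show what the promoters of different subclusters share. Each is written 5′ to 3′ on the strand of its gene, and capitals mark the ETS core CCGGAAG, searched on both strands, and 12-letter words that were picked after reading the promoters. The ranges are chr19:53365455-53365754 (plus strand) for ZNF525, chr19:52095716-52096015 (minus strand) for ZNF841, chr19:57191250-57191549 (plus strand) for ZNF264, chr19:57363301-57363600 (plus strand) for ZNF547, chr19:37078183-37078482 (plus strand) for ZNF420 and chr19:34677428-34677727 (plus strand) for ZNF302.
ZNF525: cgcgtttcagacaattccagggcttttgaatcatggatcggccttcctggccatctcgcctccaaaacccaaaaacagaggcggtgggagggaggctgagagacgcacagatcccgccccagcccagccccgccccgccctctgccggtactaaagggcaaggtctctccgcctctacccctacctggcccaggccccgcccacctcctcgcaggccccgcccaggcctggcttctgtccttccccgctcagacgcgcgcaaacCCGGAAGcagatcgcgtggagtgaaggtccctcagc
ZNF841: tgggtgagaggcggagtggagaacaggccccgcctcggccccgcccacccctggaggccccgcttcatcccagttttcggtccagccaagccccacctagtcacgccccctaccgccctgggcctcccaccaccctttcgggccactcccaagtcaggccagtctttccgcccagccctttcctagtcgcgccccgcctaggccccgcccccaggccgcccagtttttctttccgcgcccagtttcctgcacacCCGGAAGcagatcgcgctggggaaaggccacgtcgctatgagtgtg
ZNF264: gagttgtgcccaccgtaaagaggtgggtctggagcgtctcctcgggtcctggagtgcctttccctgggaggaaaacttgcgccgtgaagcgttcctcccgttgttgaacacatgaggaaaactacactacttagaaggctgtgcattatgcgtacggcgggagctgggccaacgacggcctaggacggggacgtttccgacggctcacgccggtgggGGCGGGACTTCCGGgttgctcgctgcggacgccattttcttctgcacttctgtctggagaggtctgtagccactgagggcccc
ZNF547: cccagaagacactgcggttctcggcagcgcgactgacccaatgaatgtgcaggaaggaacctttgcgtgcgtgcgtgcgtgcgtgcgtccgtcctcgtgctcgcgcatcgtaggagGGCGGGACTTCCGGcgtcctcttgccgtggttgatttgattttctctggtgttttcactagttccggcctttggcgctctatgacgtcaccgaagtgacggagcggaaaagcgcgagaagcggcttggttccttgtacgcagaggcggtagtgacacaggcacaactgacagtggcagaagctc
ZNF420: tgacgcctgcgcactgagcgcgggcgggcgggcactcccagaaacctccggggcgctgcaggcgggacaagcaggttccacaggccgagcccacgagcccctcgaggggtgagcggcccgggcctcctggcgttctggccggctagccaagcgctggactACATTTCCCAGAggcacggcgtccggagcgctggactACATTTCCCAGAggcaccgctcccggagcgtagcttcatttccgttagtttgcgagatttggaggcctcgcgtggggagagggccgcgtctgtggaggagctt
ZNF302: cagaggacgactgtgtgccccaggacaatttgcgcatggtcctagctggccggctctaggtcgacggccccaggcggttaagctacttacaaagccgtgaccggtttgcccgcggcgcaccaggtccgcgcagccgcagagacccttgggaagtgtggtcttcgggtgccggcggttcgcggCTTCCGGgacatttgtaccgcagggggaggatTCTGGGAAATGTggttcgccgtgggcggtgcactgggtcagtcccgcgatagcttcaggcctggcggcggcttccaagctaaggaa

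The ETS core CCGGAAG stood in 65 of the 137 promoters (47.4%), against 56 of 548 promoters of non-ZNF genes of the span (10.2%) and 2913 of 27305 promoters in all (10.7%). Of the 65, the core lay between 50 bases before and 50 after the start in 50 (76.9%), against 53.6% of the non-ZNF promoters with a core and 56.3% of all promoters with one. The core was unevenly spread: it stood in 20 of 32 promoters of S4 and 31 of 52 of S5, in 5 of 23 of S2 and 6 of 20 of S3, in 3 of 4 of S1 and in 0 of 6 outside the subclusters. The letters TATAAA stood in 1 of the 137 promoters (0.73%), against 8.21% of the non-ZNF promoters and 12% of all. The median ratio of observed to expected CpG was 0.823, against 0.644 for the non-ZNF promoters and 0.58 for all promoters. These are descriptions of the printed letters, and a match does not show that a factor binds.

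The 12-letter words were unevenly spread over the subclusters. GGCGGGACTTCC, whose end overlaps the reverse complement of the ETS core, stood in 15 members, 14 in S5 and ZNF599 of S1, which is 10.9% of the member promoters against 0.182% of the non-ZNF promoters and 0.33% of all. ACATTTCCCAGA stood in 15 other members, 2 in S1, 6 in S2, 5 in S3, ZNF331 of S4 and ZNF546 outside, against 2 non-ZNF promoters of the span and 42 promoters in all. CCCGGAAGCGGA, which contains the ETS core, stood in 10 members, 9 in S4 and ZNF865 of S5, against 0 of 548 non-ZNF promoters and 32 promoters in all. The members thus made up 16.7%, 35.7% and 31.2% of all promoters with the S5 word, the S2 and S3 word and the S4 word. The words were read from the promoters of ZNF264, ZNF420 and ZNF320, which are counted among the carriers. These shares are therefore no test of enrichment. In the printed promoters, ZNF420 carried the S2 and S3 word at 2 places and ZNF302 carried it once on the opposite strand.

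Levels are given in CPM on 1 scale over all 35 libraries, and per kb of exon where genes are set side by side. By level per kb, ZNF146 of S2 stood first, with a mean of 47.1 CPM per kb over the 35 libraries. ZNF146 (OZF) consists of zinc fingers with no KRAB domain. The highest of the other subclusters were ZNF302 in S1 (2.91 CPM per kb), ZNF428 in S3 (7.42), ZNF480 in S4 (11.9) and ZNF787 in S5 (11.7), and ZNF526 led outside them (6.75). The median gene of a subcluster stood far lower, between 0.76 CPM per kb in S1 and 1.31 in S5. Most numbered ZNF genes of the arm were therefore transcribed at a low level in these lines, with a few high exceptions.

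**Figure D1:**
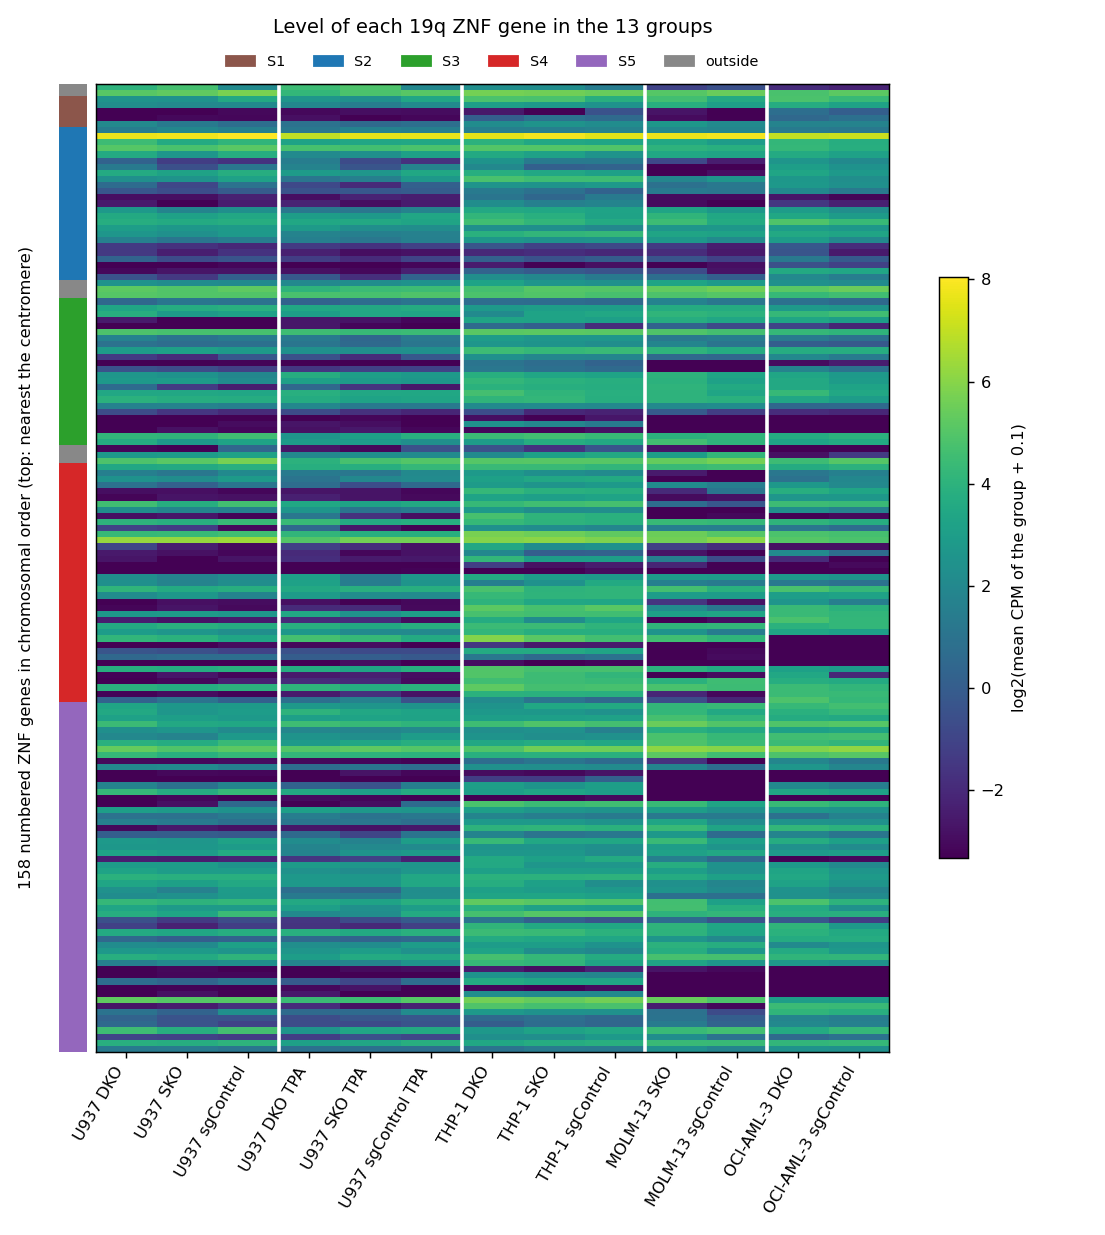
Level of the 158 genes in each of the 13 groups, as log2 of the group's mean CPM plus 0.1. Rows are genes in chromosomal order and the bar at the left marks the subcluster. Dark rows and blocks, at under 0.1 CPM, are seen in U937, MOLM-13 and OCI-AML-3 at different places, and fewest in THP-1.

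A gene was called on in a group when it had at least 1 CPM in every library, and off when its mean was under 0.1 CPM, which is near the limit that 3 reads set in a library (0.049 to 0.0938 CPM). By this measure 77 of the 158 genes were on in all 13 groups and 7 were off in all 13. THP-1 had the most genes on, with 137 in DKO, 134 in SKO and 131 in sgControl, and 10, 12 and 10 off. OCI-AML-3 had 123 on and 25 off in DKO, and 120 on and 26 off in sgControl. MOLM-13 had 107 on and 37 off in SKO, and 101 on and 45 off in sgControl. U937 had 99 on and 40 off in DKO, 94 on and 42 off in SKO, and 99 on and 37 off in sgControl. After TPA it had 98 on and 32 off in DKO, 91 on and 34 off in SKO, and 98 on and 40 off in sgControl.

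The lines differed in which ZNF genes were off. In sgControl, 83 genes were on in all 4 lines, 9 were off in all 4, and 39 were on in at least 1 line and off in at least 1 other. Of these 39, 18 lay among the 39 genes of S4, 9 among the 57 of S5 and 6 among the 25 of S2. The rest were 4 of the 24 in S3, 1 of the 5 in S1 and 1 of the 8 outside. U937 sgControl was off for 22 genes that were on in another line, MOLM-13 for 29, OCI-AML-3 for 13 and THP-1 for 0. Genes on in THP-1 and off in the other 3 lines numbered 4, and no other line had such a gene. No matching share of all genes or of the non-ZNF genes is given for these states. THP-1 also had the most genes of any kind past the filter on low counts, with 18585. The untreated U937 fit had 14915, MOLM-13 15472 and OCI-AML-3 16175. Whether the line differences are particular to the ZNF genes was not tested. Silent genes could be neighbours. In OCI-AML-3 sgControl the 5 consecutive members from ZNF160 to ZNF677 (ZNF160, ZNF415, ZNF347, ZNF665 and ZNF677) were off, although ZNF160 averaged 24.4 CPM in THP-1 sgControl, 17 CPM in MOLM-13 sgControl and 10.2 CPM in U937 sgControl. In MOLM-13 sgControl the 5 from ZNF667 to ZNF835 were off, among them ZNF71, which averaged 19.5 CPM in U937 sgControl. In U937 sgControl the 5 from ZNF610 to ZNF578 were off.

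**Figure D2:**
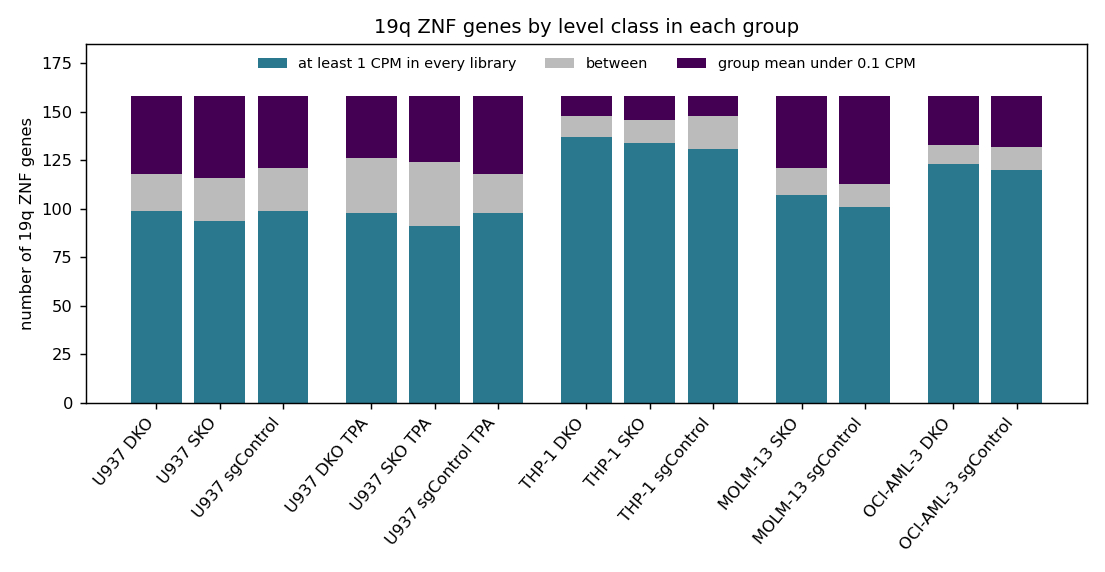
Number of the 158 genes that were on (at least 1 CPM in every library), off (mean under 0.1 CPM) or in between, in each of the 13 groups. THP-1 groups have 131 to 137 genes on, and U937 groups 91 to 99.

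Summed over the 158 genes, levels were higher in the knockout groups of 3 lines and not in U937. The sum averaged 2178 ± 28.8 CPM in THP-1 DKO, 2008 ± 23.7 CPM in THP-1 SKO and 1846 ± 6.47 CPM in THP-1 sgControl (SD, n = 3 each). It averaged 1783 ± 60.8 CPM in MOLM-13 SKO and 1526 ± 31.2 CPM in MOLM-13 sgControl, and 1650 ± 17 CPM in OCI-AML-3 DKO and 1490 ± 6.52 CPM in OCI-AML-3 sgControl (SD, n = 2 each). In U937 the sum averaged 1361 ± 21.5 CPM in DKO, 1223 ± 18.7 CPM in SKO and 1450 ± 23.2 CPM in sgControl, and after TPA 992.8 ± 17.1 CPM in DKO, 1026 ± 11.2 CPM in SKO and 1147 ± 9.08 CPM in sgControl (SD, n = 3 each). The sums of the groups compared did not overlap in any of these lines and treatments. No p-value is given for a sum over chosen genes. The sum is weighted towards the few abundant genes. ZNF146 alone averaged 207 ± 5.74 CPM in U937 DKO and 264 ± 10.8 CPM in U937 sgControl (SD, n = 3 each). By count, 31 of the 118 tested members were higher and 28 lower in U937 DKO.

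In THP-1, most of the tested numbered ZNF genes of 19q were higher in DKO than in sgControl. Of the 148 that passed the filter on low counts, 93 were higher and 16 lower (62.8% and 10.8%; edgeR's quasi-likelihood test, Benjamini-Hochberg adjusted p under 0.05), with a median log2 fold change of 0.38. Among all 18585 genes tested 31.9% were higher and 33.7% lower, and among the 534 non-ZNF genes of the span 38% and 29.2%, with a median of 0.16. The non-ZNF genes that lie within the subclusters had a median of 0.703, above that of the members. Restricted to a mean log2 CPM of at least 2, where the median of all 10843 genes was -0.17, 77 of 116 members were higher and 14 lower. Those called higher made up 16 of 24 tested genes in S2, 16 of 22 in S3, 28 of 36 in S4 and 27 of 53 in S5, with medians of 0.52, 0.43, 0.48 and 0.29. Of the 10 myeloid genes 7 were higher and 3 lower in THP-1 DKO, and all 3 mitochondrial genes listed as a sign of RNA quality were lower (median -0.52); their part in the ZNF counts was not tested.

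ZNF331, an imprinted KRAB zinc finger gene at the end of S4, had 4.8, 4.14 and 3.97 CPM in THP-1 DKO, against 1.09, 1.58 and 1.36 CPM in THP-1 sgControl. All 3 DKO libraries stood above all 3 control libraries. The log2 fold change was 1.79 ± 0.23 (SE, edgeR's quasi-likelihood test, adjusted p = 5e-08). ZNF461 of S2 had 3.86, 3.06 and 4.62 CPM in THP-1 DKO, against 0.638, 0.931 and 1.86 CPM in THP-1 sgControl (log2 fold change 1.86 ± 0.31, edgeR adjusted p = 3.8e-06). Its control libraries spread widely but stayed below every DKO library. ZNF550 of S5, which carries the S5 word, averaged 13.6 ± 0.918 CPM in THP-1 DKO and 4.73 ± 0.185 CPM in THP-1 sgControl (SD, n = 3 each; log2 fold change 1.63 ± 0.11, edgeR adjusted p = 7e-14).

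A few genes went the other way in THP-1. ZNF701 of S4 had 2.81, 2.87 and 3.07 CPM in THP-1 DKO, against 10.4, 13.8 and 11.9 CPM in THP-1 sgControl (log2 fold change -1.94 ± 0.14, edgeR adjusted p = 2.4e-13). The groups were far apart, with SKO at 4.78, 6 and 5.07 CPM between them. ZNF114, which has a KRAB pattern and 3 fingers and lies outside the subclusters, averaged 4.22 ± 0.664 CPM in THP-1 DKO and 11.3 ± 0.973 CPM in THP-1 sgControl (SD, n = 3 each; log2 fold change -1.32 ± 0.12, edgeR adjusted p = 8.5e-11). ZNF428 of S3, which has no KRAB pattern in its predicted protein, averaged 4.22 ± 0.67 CPM in THP-1 DKO and 11.1 ± 1.1 CPM in THP-1 sgControl (SD, n = 3 each; log2 fold change -1.29 ± 0.13, edgeR adjusted p = 4.4e-10).

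The THP-1 SKO differed less from sgControl. Of the 148 tested, 35 were higher and 13 lower (23.6% and 8.78%), with a median of 0.13. Among all genes 20.6% were higher and 22.8% lower, and among non-ZNF genes of the span 17.4% and 20.8% (median 0.023). The non-ZNF genes within the subclusters had a median of 0.134. ZNF302, a KRAB gene of S1, had 27.3, 27.7 and 27.7 CPM in THP-1 SKO, against 12.9, 14.6 and 14.1 CPM in THP-1 sgControl (log2 fold change 1.00 ± 0.073, edgeR adjusted p = 9.3e-13). The DKO libraries, at 27, 30.3 and 28.5 CPM, lay at the level of the SKO libraries. ZNF417 of S5, which with its near-identical paralog ZNF587 is known to repress HERV-K elements, averaged 17.9 ± 0.553 CPM in THP-1 SKO and 9.95 ± 0.375 CPM in THP-1 sgControl (SD, n = 3 each; log2 fold change 0.85 ± 0.085, edgeR adjusted p = 1e-09). ZNF587 averaged 18.8 ± 2.6 CPM in THP-1 SKO and 12.6 ± 0.757 CPM in THP-1 sgControl (SD, n = 3 each; log2 fold change 0.59 ± 0.087, edgeR adjusted p = 1.6e-06). How reads are split between these 2 paralogs is uncertain.

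Set directly against SKO, THP-1 DKO had 78 of 148 genes higher and 14 lower (52.7% and 9.46%), with a median of 0.30. Among all genes 25.3% were higher and 28.5% lower. Among non-ZNF genes of the span 30.5% were higher and 24.5% lower (median 0.16), and those within the subclusters had a median of 0.482. Among the members, S4 had the largest share, with 27 of 36 higher and 2 lower. ZNF320 of S4, which carries the S4 word, did not change in 1 direction with the number of targeted genes. It had 12.6, 11.5 and 13.3 CPM in THP-1 DKO and 4.4, 4.65 and 4.32 CPM in THP-1 SKO, with 10.7, 10.3 and 9.77 CPM in THP-1 sgControl. The SKO libraries were the lowest of the 3 groups, with no overlap (DKO against SKO log2 fold change 1.58 ± 0.11, edgeR adjusted p = 2e-13; SKO against sgControl -1.19 ± 0.11, adjusted p = 9.3e-11). ZNF610, another S4 gene, averaged 11.1 ± 0.343 CPM in THP-1 DKO and 4.58 ± 0.124 CPM in THP-1 SKO (SD, n = 3 each; log2 fold change 1.37 ± 0.14, edgeR adjusted p = 1.1e-09).

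**Figure D3:**
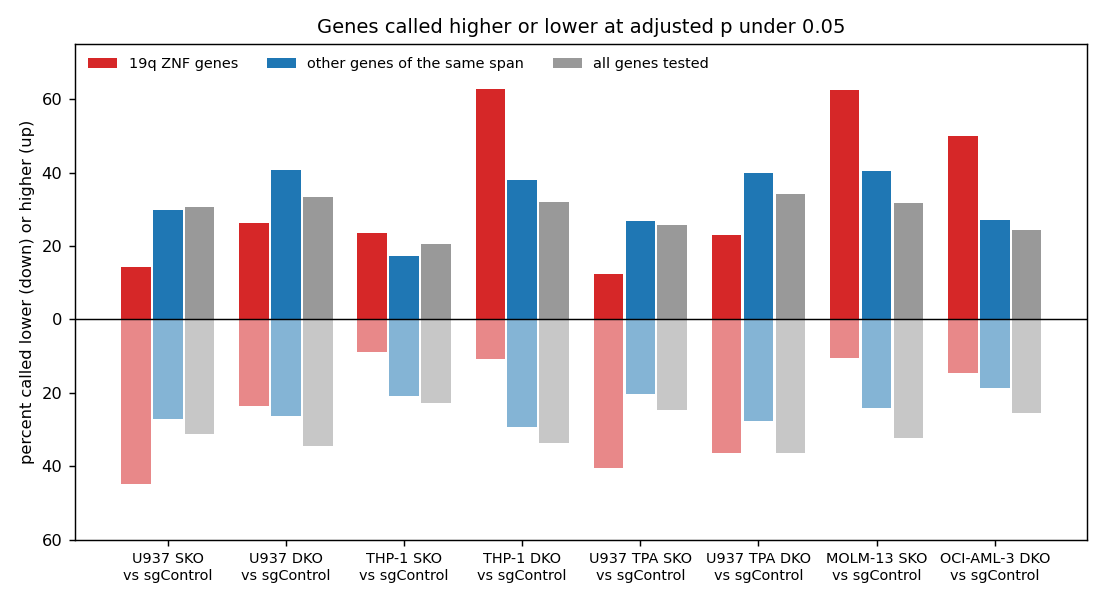
Share of tested genes called higher or lower (adjusted p under 0.05) among the 19q ZNF genes, the non-ZNF genes of the span and all genes, in each comparison. In THP-1 DKO, MOLM-13 SKO and OCI-AML-3 DKO the ZNF bars for higher genes (62.8%, 62.6% and 50%) exceed those of all genes (31.9%, 31.8% and 24.3%), and in U937 SKO the ZNF bar for lower genes (44.9%) exceeds that of all genes (31.2%).

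In MOLM-13 too, most of the tested genes were higher in the knockout. Of 115 tested, 72 were higher and 12 lower than in MOLM-13 sgControl (62.6% and 10.4%), with a median of 0.50, where 31.8% of all 15472 genes were higher and 32.2% lower. Among the 467 non-ZNF genes of the span 40.3% were higher and 24.2% lower, with a median of 0.19. Those within the subclusters had a median of 0.288. S5 had 37 of 45 higher and 2 lower (median 0.64), and S3 had 12 of 19 higher. The genes outside the subclusters ran the other way, with 1 of 7 higher and 5 lower. All 13 tested genes with the S5 word were called higher, with a median of 1.04. The word was read from the promoter of ZNF264, which is among them, and nearly all its carriers lie in S5. Their count is therefore a description and no test of the word. The same word went with other counts elsewhere: 10 of 13 were higher in OCI-AML-3 DKO (median 0.71), 10 higher and 2 lower of 15 in THP-1 DKO (median 0.46), 2 higher and 3 lower of 15 in THP-1 SKO, 3 higher and 3 lower of 12 in U937 DKO, 2 higher and 4 lower of 12 in U937 SKO (median -0.21), 1 higher and 5 lower of 13 in U937 DKO with TPA (median -0.37), and 1 higher and 7 lower of 13 in U937 SKO with TPA (median -0.58). Other lists moved in MOLM-13 SKO as well. Of the 10 myeloid genes, 9 were higher and 1 lower, with LYZ (lysozyme) at 7600 ± 47.1 CPM in MOLM-13 SKO and 581 ± 17.7 CPM in MOLM-13 sgControl (SD, n = 2 each), and all 3 mitochondrial genes were higher (median 0.33). Their part in the ZNF counts was not tested.

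ZNF547, an S5 gene whose promoter carries that word, had 5.99 and 7.14 CPM in MOLM-13 SKO, against 1.21 and 1.69 CPM in MOLM-13 sgControl (log2 fold change 2.17 ± 0.19, edgeR adjusted p = 1.9e-11). The 2 groups stood clearly apart, and ZNF547 was lower than the MOLM-13 SKO libraries in every library of the other lines. ZNF134, also with the word, had 23.5 and 24.2 CPM in MOLM-13 SKO, against 8.76 and 8.48 CPM in MOLM-13 sgControl (log2 fold change 1.48 ± 0.09, edgeR adjusted p = 2.3e-15). ZNF132, with the word as well, averaged 4.67 ± 1.04 CPM in MOLM-13 SKO and 1.86 ± 0.208 CPM in MOLM-13 sgControl (SD, n = 2 each; log2 fold change 1.33 ± 0.21, edgeR adjusted p = 1.5e-06). In THP-1 SKO the same gene was lower, at 4.74 ± 0.293 CPM against 6.95 ± 0.477 CPM in THP-1 sgControl (SD, n = 3 each; log2 fold change -0.54 ± 0.13, edgeR adjusted p = 0.00083).

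Among the MOLM-13 genes that were lower, ZNF350 (ZBRK1, a partner of BRCA1 in repression of GADD45A) had 0.267 and 0.05 CPM in MOLM-13 SKO, against 2.25 and 1.85 CPM in MOLM-13 sgControl. The log2 fold change was -3.68 ± 0.46 (edgeR adjusted p = 2.9e-08). The same gene was higher in THP-1 DKO, at 19.1 ± 0.56 CPM against 13.9 ± 1.27 CPM in THP-1 sgControl (SD, n = 3 each; log2 fold change 0.56 ± 0.083, edgeR adjusted p = 6.3e-07), and it was near 0 in every U937 library. ZNF114 averaged 8.05 ± 0.228 CPM in MOLM-13 SKO and 18.3 ± 1.56 CPM in MOLM-13 sgControl (SD, n = 2 each; log2 fold change -1.18 ± 0.10, edgeR adjusted p = 7.4e-12). ZNF765 of S4 had 14.7 and 15.5 CPM in MOLM-13 SKO, against 23.3 and 22.6 CPM in MOLM-13 sgControl (log2 fold change -0.59 ± 0.081, edgeR adjusted p = 1.4e-07).

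In OCI-AML-3, 65 of 130 tested genes were higher and 19 lower in DKO than in sgControl (50% and 14.6%), with a median of 0.31, where 24.3% of all 16175 genes were higher and 25.6% lower. Non-ZNF genes of the span had 27.2% higher and 18.8% lower, with a median of 0.095. S2 had 17 of 23 higher and 1 lower (median 0.53), and the genes outside the subclusters had 5 of 6 lower (median -0.35). Of the 10 myeloid genes 6 were higher and 3 lower in OCI-AML-3 DKO, and 2 of 3 mitochondrial genes were higher; their part was not tested. With 2 libraries per group the counts rested on each library. Without OCI-AML-3 DKO replicate 1 the higher count was 25 and the lower count 8, and without DKO replicate 2 they were 32 and 9; without either sgControl library the lower count was 11.

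ZNF525, a KRAB gene of S4, had the largest change among the genes named in this line. ZNF525 had 12.6 and 10.1 CPM in OCI-AML-3 DKO, against 0.193 and 0.085 CPM in OCI-AML-3 sgControl (log2 fold change 6.34 ± 0.25, edgeR adjusted p = 6.5e-27). The gene was thus off or nearly off in the control libraries and at over 10 CPM in both DKO libraries. In THP-1 it was already expressed, at 29.6, 31.7 and 32.4 CPM in DKO, 21.1, 22.5 and 22.7 CPM in SKO and 17.3, 18.2 and 18.3 CPM in sgControl. In MOLM-13 and U937 no library reached 1 CPM of ZNF525. Its promoter, printed above, has the ETS core just after the start.

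ZNF671 of S5, a gene reported as silenced by DNA methylation in several cancers, had 17.2 and 17 CPM in OCI-AML-3 DKO, against 7.17 and 6.86 CPM in OCI-AML-3 sgControl (log2 fold change 1.29 ± 0.11, edgeR adjusted p = 9.4e-15). ZNF880 of S4 averaged 4.3 ± 0.222 CPM in OCI-AML-3 DKO and 1.59 ± 0.158 CPM in OCI-AML-3 sgControl (SD, n = 2 each; log2 fold change 1.45 ± 0.20, edgeR adjusted p = 2e-08). ZNF649 of S4 fell, with 2.03 and 1.62 CPM in OCI-AML-3 DKO against 3.27 and 4.14 CPM in OCI-AML-3 sgControl (log2 fold change -1.01 ± 0.21, edgeR adjusted p = 4.6e-05); without DKO replicate 2 it no longer passed the threshold (log2 fold change -0.86).

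U937 had more of these genes lower than higher in SKO. In U937 SKO, 17 of 118 tested genes were higher and 53 lower than in sgControl (14.4% and 44.9%), with a median of -0.25, where 30.7% of all 14915 genes were higher and 31.2% lower. The 448 non-ZNF genes of the span had 29.9% higher and 27.2% lower, with a median of 0.046. Those within the subclusters had a median of -0.224, near that of the members. S2 had 12 of 20 lower (median -0.44) and S5 had 6 of 46 higher and 21 lower, while S3 had 4 of 18 higher and 3 lower (median 0.07). In U937 DKO, 31 of 118 were higher and 28 lower than in sgControl (median 0.078), where 33.2% of all genes were higher and 34.5% lower. Non-ZNF genes of the span had 40.8% higher and 26.3% lower (median 0.18). DKO set against SKO had 43 higher and 11 lower (36.4% and 9.32%, median 0.24), where 24.1% and 24.9% of all genes were called. There the non-ZNF genes of the span had 32.4% higher and 15.2% lower (median 0.12), and those within the subclusters a median of 0.192. Of the members in S2, 13 of 20 were higher and 2 lower. Of 9 tested myeloid genes 7 were higher and 2 lower in U937 DKO and 6 were higher and 3 lower in U937 SKO, and 2 of 3 mitochondrial genes were lower in each; their part was not tested. The lower count of 11 fell to 6 without U937 DKO replicate 1 and to 7 without U937 DKO replicate 2.

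ZNF536, a gene without a KRAB pattern that is known to restrain neuronal differentiation, had the largest rise in U937 among called genes whose average log2 CPM reached 1. It had 16.1, 16.8 and 15.2 CPM in U937 DKO, 27.3, 24 and 25 CPM in U937 SKO and 3.68, 4.77 and 4.37 CPM in U937 sgControl. All knockout libraries stood above all control libraries, and SKO stood above DKO. The log2 fold change was 1.91 ± 0.10 in DKO (edgeR adjusted p = 3.7e-16) and 2.57 ± 0.097 in SKO (adjusted p = 3e-19). ZNF536 lies nearest the centromere of the 158, apart from any subcluster, at chr19:30228290-30713538.

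ZNF8 of S5 had 1.93, 1.5 and 2.27 CPM in U937 DKO, 1.57, 1.02 and 0.79 CPM in U937 SKO and 5.32, 5.29 and 4.85 CPM in U937 sgControl. Both knockout groups lay below the control libraries (log2 fold change -1.45 ± 0.20 in DKO, edgeR adjusted p = 3e-07; -2.18 ± 0.22 in SKO, adjusted p = 5.8e-10). In MOLM-13 the direction was the reverse, with 2.3 and 1.37 CPM in SKO against 0.429 and 0.563 CPM in sgControl (log2 fold change 1.88, edgeR adjusted p = 4.1e-05). ZNF302 was also lower in U937, at 6.25, 5 and 5.41 CPM in DKO and 5.04, 4.3 and 7.05 CPM in SKO, against 10.8, 11.9 and 11.7 CPM in sgControl (log2 fold change -1.05 ± 0.13 in DKO, edgeR adjusted p = 5.8e-08). ZNF420 (Apak), known as a negative regulator of p53, stood on both sides of the control, with 6.59, 7.39 and 7.24 CPM in U937 DKO, 2.87, 3.44 and 3.74 CPM in U937 SKO and 4.87, 4.55 and 5.25 CPM in U937 sgControl (DKO against SKO log2 fold change 1.08 ± 0.14, edgeR adjusted p = 1.5e-07).

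Some genes at or near 0 in U937 changed state with the genotype. ZNF264 of S5 had 0 reads in all 3 U937 DKO libraries and 0, 0 and 0.122 CPM in SKO, against 1.64, 1.51 and 1.03 CPM in sgControl. Against the floor of 3 reads over the DKO group, it was at least 48.1-fold lower in DKO. After TPA it again had 0 reads in DKO and 1.54, 1.41 and 1.49 CPM in sgControl, at least 55.1-fold lower. In the other 3 lines ZNF264 stood between 9.66 and 27.7 CPM in every library, and it was higher in MOLM-13 SKO (18.2 and 21.5 CPM) than in MOLM-13 sgControl (9.66 and 9.77 CPM; log2 fold change 1.04, edgeR adjusted p = 5.4e-11). ZNF234 of S3 went the other way, with 1.59, 1.23 and 1.6 CPM in U937 DKO, 0.05, 0.534 and 0.304 CPM in U937 SKO and 0.095, 0 and 0.171 CPM in U937 sgControl (DKO log2 fold change 4.06, edgeR adjusted p = 2.2e-06). ZNF541, outside the subclusters, had 0 reads in U937 SKO and a mean of 1.24 CPM in U937 sgControl, at least 46.9-fold lower in SKO.

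**Figure D4:**
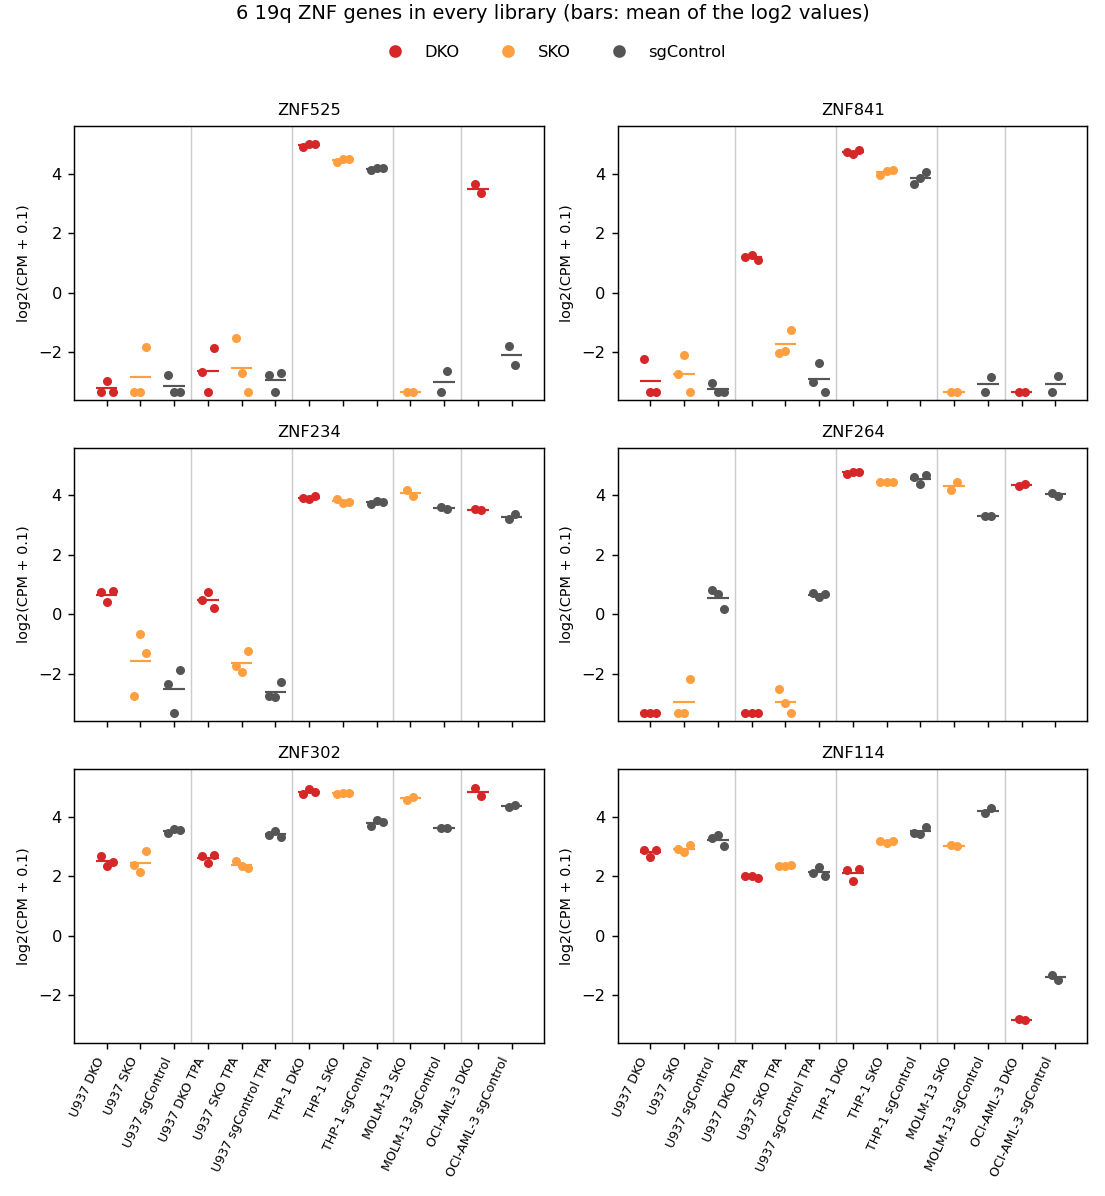
Level of 6 of the 19q ZNF genes (ZNF525, ZNF841, ZNF234, ZNF264, ZNF302 and ZNF114) as log2 of CPM plus 0.1. Points are libraries, short bars are the mean of a group's log2 values, and knockout groups stand left of their sgControl. ZNF525 is on in OCI-AML-3 DKO (12.6 and 10.1 CPM) and near 0 in OCI-AML-3 sgControl, and ZNF264 is at 0 in U937 DKO and at 1.03 to 1.64 CPM in U937 sgControl.

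Under TPA, the U937 SKO had more ZNF genes lower than higher. In TPA SKO, 15 of 121 tested genes were higher and 49 lower than in TPA sgControl (12.4% and 40.5%, median -0.24), where 25.8% and 24.6% of all 16246 genes and 26.7% and 20.4% of the 490 non-ZNF genes of the span were called. In TPA DKO, 28 were higher and 44 lower (23.1% and 36.4%, median -0.15), where 34.1% and 36.5% of all genes and 39.8% and 27.6% of the non-ZNF genes of the span were called. The lower share in TPA DKO was thus near that of all genes, and the higher share was below it. All 3 mitochondrial genes were lower in TPA DKO (median -0.71), and their part in these counts was not tested. TPA DKO against TPA SKO had 42 higher and 21 lower (34.7% and 17.4%, median 0.18), where 31.3% and 32.4% of all genes were called. Of the non-ZNF genes of the span 38.4% were higher and 25.1% lower (median 0.11) in that comparison. Subclusters went opposite ways in TPA DKO, with 13 of 25 genes of S4 higher and 5 lower (median 0.37) and 4 of 47 genes of S5 higher and 21 lower (median -0.37). The TPA SKO count of 15 higher was 7 without SKO TPA replicate 3 and 9 without sgControl TPA replicate 1.

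ZNF841 of S4 had 2.22, 2.31 and 2.04 CPM in U937 DKO with TPA and 0.148, 0.16 and 0.325 CPM in U937 SKO with TPA, against 0.024, 0.094 and 0 CPM in U937 sgControl with TPA. It was on in DKO with TPA and off in the control, while untreated U937 DKO libraries had 0.114, 0 and 0 CPM. THP-1 libraries had 12.6 to 27.6 CPM of ZNF841, and MOLM-13 and OCI-AML-3 libraries at most 0.042 CPM. ZNF836, also of S4, had 1.04, 1.37 and 1.56 CPM in U937 DKO with TPA and 0 reads in U937 sgControl with TPA, at least 51.4-fold higher. ZNF160 of S4, known in intestinal epithelium as a repressor of TLR4, averaged 25.6 ± 1.32 CPM in U937 DKO with TPA and 12.2 ± 0.273 CPM in U937 sgControl with TPA (SD, n = 3 each; log2 fold change 1.08 ± 0.074, edgeR adjusted p = 3.9e-13).

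Some genes differed between TPA DKO and TPA SKO. ZNF808 of S4, a repressor of MER11 elements needed in pancreas development, had 8.08, 8.77 and 8.49 CPM in U937 DKO with TPA and 2.38, 2.51 and 2.49 CPM in U937 SKO with TPA, with 6.42, 6.21 and 7.14 CPM in U937 sgControl with TPA. SKO stood lowest and DKO highest, with no overlap (DKO against SKO log2 fold change 1.78 ± 0.13, edgeR adjusted p = 1.7e-12). ZNF382 of S2, a KRAB gene reported as a tumour suppressor silenced in cancers, had 2.99, 2.22 and 2.95 CPM in U937 DKO with TPA and 0.643, 0.427 and 0.465 CPM in U937 SKO with TPA, against 0.048, 0.211 and 0.371 CPM in U937 sgControl with TPA (DKO against sgControl log2 fold change 3.71 ± 0.41, edgeR adjusted p = 6.8e-09; DKO against SKO 2.41 ± 0.36, adjusted p = 1.7e-06). ZNF551 of S5 was lower in both knockouts, at 4.06 ± 0.402 CPM in U937 DKO with TPA and 4.71 ± 0.385 CPM in U937 SKO with TPA, against 12.4 ± 0.722 CPM in U937 sgControl with TPA (SD, n = 3 each; DKO log2 fold change -1.60 ± 0.12, edgeR adjusted p = 1.8e-12).

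With TPA, more of the numbered ZNF genes were lower than higher in each U937 genotype. The TPA and the untreated libraries came in different count tables, so that treatment and table cannot be told apart. Of 120 tested genes, 22 were higher and 55 lower with TPA in DKO (median -0.26), where 36.9% and 36.2% of all 16989 genes were called. In SKO 13 were higher and 55 lower (median -0.28), where 31.5% and 31.4% of all genes were called. In sgControl 14 were higher and 43 lower (median -0.17), where 34.6% and 33.2% were called. Of the non-ZNF genes of the span, 39.4% were higher and 32.7% lower in DKO. Their shares were 33.1% and 27.3% in SKO, and 35% and 27.5% in sgControl. ZNF614 of S4 averaged 11.4 ± 0.371 CPM in TPA-treated U937 sgControl and 24.3 ± 2.53 CPM in untreated U937 sgControl (SD, n = 3 each; log2 fold change -1.08 ± 0.093, edgeR adjusted p = 7.5e-13). ZNF224 of S3, a KRAB protein known to act with WT1 in leukaemia cells, was among the exceptions, with 5.96, 7.14 and 7.46 CPM in TPA-treated sgControl against 3.61, 3.92 and 3.65 CPM in untreated sgControl (log2 fold change 0.89 ± 0.12, edgeR adjusted p = 8.5e-08). ZNF584 of S5 was lower in TPA-treated DKO, at 5.97 ± 1.06 CPM against 22.6 ± 0.829 CPM in untreated DKO (SD, n = 3 each; log2 fold change -1.88 ± 0.10, edgeR adjusted p = 1.2e-18).

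**Figure D5:**
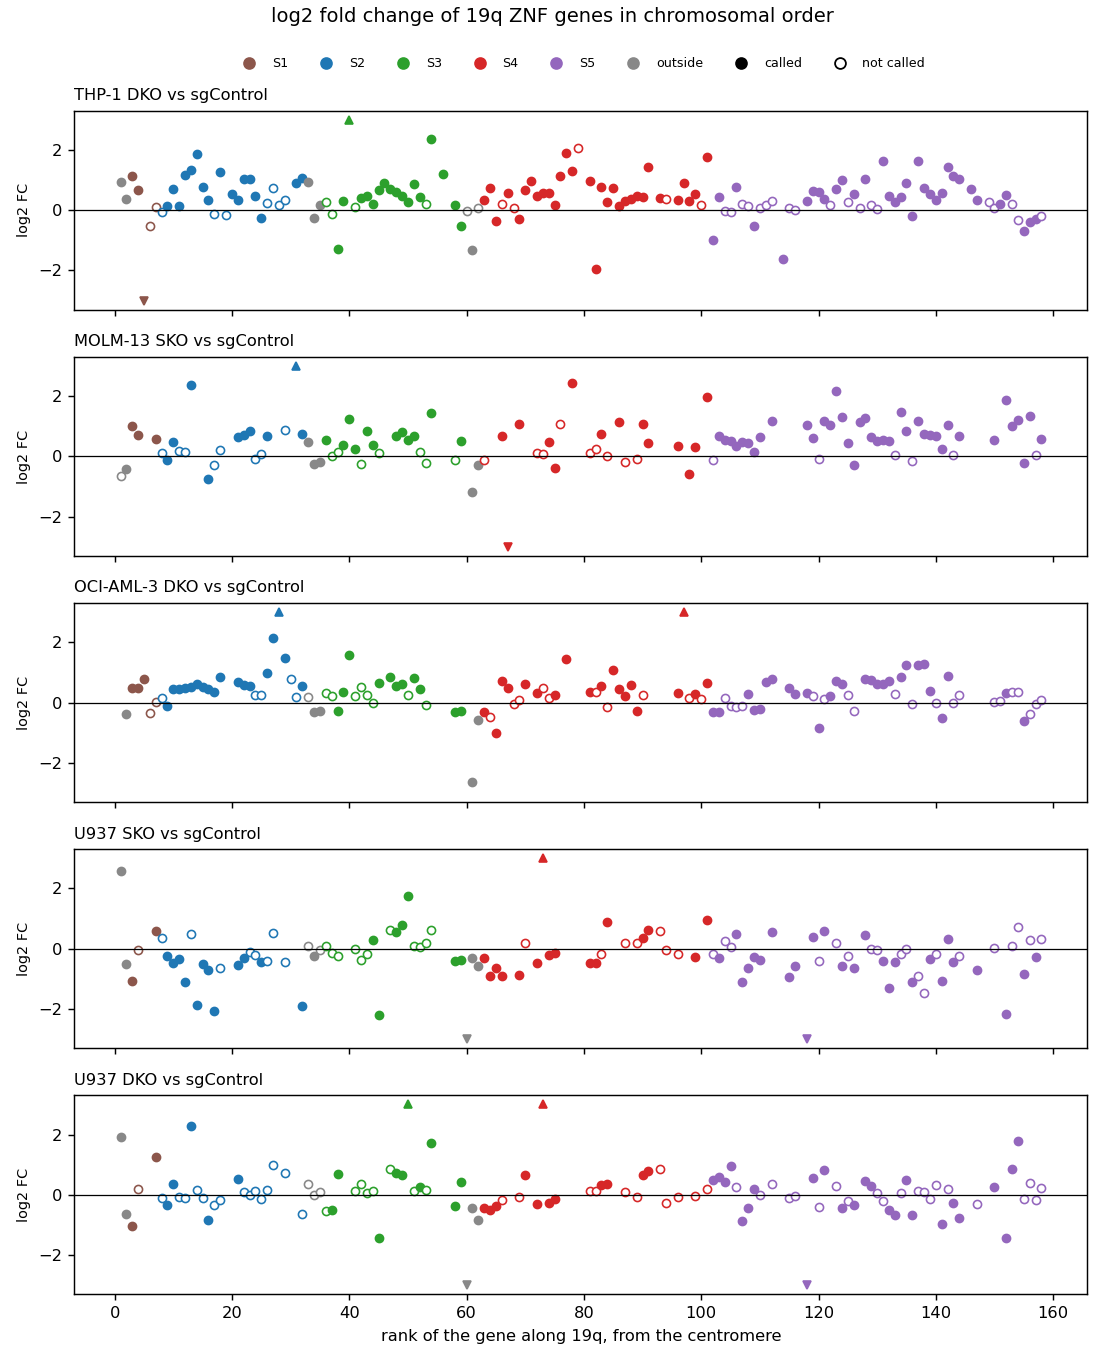
Log2 fold change of each tested 19q ZNF gene against its sgControl, by order along the arm and coloured by subcluster, in 5 comparisons. Filled points passed the adjusted threshold, and triangles at the edge stand for values beyond 3 on either side. More called points lie above 0 than below it in THP-1 DKO (median 0.38), MOLM-13 SKO (0.50) and OCI-AML-3 DKO (0.31), and more lie below 0 than above it in U937 SKO (-0.25).

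The effect of the genotype itself was compared between lines and treatments in joint fits. The DKO effect in U937 minus that in THP-1 was higher for 17 and lower for 54 of 145 tested members (median -0.38), where 29.7% and 24.7% of all 18715 genes were called. The SKO effect in U937 minus that in THP-1 was higher for 11 and lower for 58 members (median -0.30), where 24.1% and 22.7% of all genes were called. Within U937, the DKO effect with TPA minus that without was higher for 12 and lower for 33 of 120 members (median -0.17), where 21.7% and 27.8% of all 16989 genes were called. The SKO effect with TPA minus that without was higher for 17 and lower for 18 members (median -0.079), where 19.6% and 18.1% of all genes were called. For the DKO effect in U937 minus THP-1, non-ZNF genes of the span had 31.2% higher and 19.4% lower. For the SKO effect they had 23.9% and 20.2%. With TPA minus untreated they had 18.8% and 25.8% for DKO, and 19.4% and 16.3% for SKO. The count of 12 was 6 without U937 DKO replicate 2.

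Genes with and without a KRAB pattern differed in their counts, not in the same direction in every comparison. In THP-1 DKO 80 of 116 tested genes with the pattern were higher and 11 lower (median 0.47), and 13 of 32 without it were higher and 5 lower (median 0.15). In OCI-AML-3 DKO the counts were 57 higher and 7 lower of 100 with the pattern, and 8 higher and 12 lower of 30 without. In MOLM-13 SKO they were 56 and 6 of 86 with the pattern, and 16 and 6 of 29 without. In U937 SKO both kinds had more genes lower than higher, with 15 higher and 38 lower of 87 with the pattern, and 2 higher and 15 lower of 31 without. In U937 DKO 20 of 87 with the pattern (23%) were higher, against 11 of 31 without it (35.5%). In THP-1 SKO 25 of 116 with the pattern (21.6%) were higher, against 10 of 32 without it (31.2%). The shares of all genes called higher and lower were 31.9% and 33.7% in THP-1 DKO, and 24.3% and 25.6% in OCI-AML-3 DKO. They were 31.8% and 32.2% in MOLM-13 SKO, and 30.7% and 31.2% in U937 SKO. In U937 DKO they were 33.2% and 34.5%, and in THP-1 SKO 20.6% and 22.8%. With TPA they were 34.1% and 36.5% in U937 DKO, and 25.8% and 24.6% in U937 SKO. Genes with the ETS core in the promoter were higher in THP-1 DKO in 47 of 63 cases (74.6%), against 34 of 65 without the core (52.3%). The higher share was also larger with the core in MOLM-13 SKO (68.2% against 61.4%) and OCI-AML-3 DKO (57.4% against 48.3%). It was smaller with the core in U937 DKO (22.9% against 30.4%), U937 SKO (14.6% against 17.9%), THP-1 SKO (23.8% against 24.6%) and U937 SKO with TPA (12.2% against 15.8%), and in U937 DKO with TPA it was 24.5% against 24.6%. The difference between these kinds of gene was not tested.

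Over the 4 lines, with SKO or DKO set against sgControl, 10 members were called higher in all 4 lines and 36 in 3. By the same measure 3 were called lower in all 4 and 6 in 3. In U937 and THP-1 a call in either SKO or DKO counted. No share of all genes is given for calls in all 4 lines. Of the 102 members tested in all 4 lines, 40 (39.2%) were higher in at least 3 lines, against 102 of 370 non-ZNF genes of the span (27.6%) and 19.9% of 12805 genes in all. The lower share was 7.84% of the 102 members, against 19.2% of the non-ZNF genes and 26.6% of all genes. The 10 were ZNF566, ZNF382 and ZNF420 of S2, ZNF224 and ZNF225 of S3, ZNF83 and ZNF331 of S4, and ZNF419, ZNF211 and ZNF814 of S5. ZNF566 and ZNF420 were also called lower in U937 SKO. Some members called higher in 3 lines were called lower in U937, among them ZNF302, ZNF264, ZNF8, ZNF416 and ZNF548. Some called lower in 3 lines were called higher elsewhere, such as ZNF507 and ZNF146 in THP-1. ZNF224 was higher in U937 DKO (0.71, adjusted p = 2.2e-05), THP-1 DKO (0.62, adjusted p = 1.5e-06), MOLM-13 SKO (0.68, adjusted p = 4.1e-07) and OCI-AML-3 DKO (0.54, adjusted p = 0.00017), given as log2 fold changes with edgeR's quasi-likelihood test. ZNF211 had 12.2 and 12.5 CPM in OCI-AML-3 DKO against 5.18 and 5.25 CPM in OCI-AML-3 sgControl (log2 fold change 1.26, edgeR adjusted p = 9.8e-13).

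The 3 genes lower in all 4 lines were ZNF574 and ZNF114, both outside the subclusters, and ZNF584 of S5. ZNF584 had 11.7 and 12.9 CPM in OCI-AML-3 DKO against 17.7 and 20.5 CPM in OCI-AML-3 sgControl (log2 fold change -0.63 ± 0.10, edgeR adjusted p = 5.5e-07). ZNF114 was called lower in each of the 6 comparisons with sgControl in untreated lines, although in OCI-AML-3 it was near 0 in both groups (0.041 CPM in both DKO libraries, 0.3 and 0.255 CPM in sgControl). ZNF146, the most abundant per kb, was lower in U937 DKO (log2 fold change -0.35 ± 0.039, edgeR adjusted p = 3.7e-09), MOLM-13 SKO (-0.12 ± 0.032, adjusted p = 0.002) and OCI-AML-3 DKO (-0.13 ± 0.056, adjusted p = 0.049), and higher in THP-1 DKO (0.15 ± 0.039, adjusted p = 0.0015) and THP-1 SKO (0.33 ± 0.038, adjusted p = 1.8e-08). ZNF473 (ZFP100), a part of the machinery that forms histone mRNA ends, was lower in U937 DKO (-0.84 ± 0.058, adjusted p = 1.8e-13) and OCI-AML-3 DKO (-0.58 ± 0.08, adjusted p = 1.9e-08), and its THP-1 values did not pass the test (DKO 0.065, adjusted p = 0.36).

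ZNF274 is known to bind the ends of ZNF genes and to bring SETDB1 to them, which makes it a regulator of its own gene family. It had 42.8 and 42.3 CPM in MOLM-13 SKO, against 29.3 and 29.5 CPM in MOLM-13 sgControl (log2 fold change 0.55 ± 0.058, edgeR adjusted p = 1.2e-09). In U937 it had 38.3, 37.8 and 40.3 CPM in DKO, against 32.2, 33 and 32.5 CPM in sgControl (log2 fold change 0.25 ± 0.056, edgeR adjusted p = 0.0003). With TPA it was lower in DKO, at 22.1, 18.8 and 22.4 CPM against 32.8, 32.8 and 32.7 CPM in sgControl (log2 fold change -0.62 ± 0.07, edgeR adjusted p = 8.7e-09). Its values in THP-1 DKO (0.09, adjusted p = 0.17) and OCI-AML-3 DKO (0.0031, adjusted p = 0.99) did not pass.

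Of 25 genes listed for H3K9 methylation and the KAP1 pathway, most were called lower in the DKO groups. The list includes the targeted genes SUV39H1 and SUV39H2, so these entered the counts. It also includes the H3K9 demethylase genes KDM4A, KDM4B and KDM4C and the DNA methylation genes DNMT1 and UHRF1. The counts were 5 higher and 16 lower in U937 DKO, 5 and 14 in THP-1 DKO, 4 and 14 in OCI-AML-3 DKO, 5 and 17 in U937 DKO with TPA, and 5 and 16 in MOLM-13 SKO. The lower shares were 64%, 56%, 56%, 68% and 64%, where 34.5%, 33.7%, 25.6%, 36.5% and 32.2% of all genes were called lower in these 5 comparisons. The counts were 8 higher and 10 lower in U937 SKO, 8 and 6 in THP-1 SKO, and 7 and 8 in U937 SKO with TPA. TRIM28, the partner of KRAB, itself lies on 19q. Its log2 fold change was -0.59 ± 0.031 in U937 DKO (edgeR adjusted p = 4.4e-16), -0.61 ± 0.039 in THP-1 DKO (adjusted p = 2.4e-14), -0.51 ± 0.025 in MOLM-13 SKO (adjusted p = 1e-17) and -0.47 ± 0.049 in OCI-AML-3 DKO (adjusted p = 1e-11). SETDB1 was 0.17 ± 0.042 in THP-1 DKO (adjusted p = 0.00078) and did not pass in U937 DKO (-0.11, adjusted p = 0.068). In the SKO groups, TRIM28 averaged 625 ± 13.2 CPM in U937 SKO, against 801 ± 2.4 CPM in U937 sgControl (SD, n = 3 each). It averaged 442 ± 18.3 CPM in THP-1 SKO, against 427 ± 17.9 CPM in THP-1 sgControl (SD, n = 3 each). The part of TRIM28 in the ZNF levels was not tested.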

How the data were processed

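Poly(A) RNA of 35 libraries was sequenced; per the submitters' processing notes, reads were handled with fastp 0.23.4, STAR 2.7.11b and featureCounts (Subread 2.0.6) on hg38. The authors deposited 2 tables of raw read counts per gene. Per the file headers, the table of untreated U937 and THP-1 was counted by gene name against GENCODE 38, with no strand option and without reads that map to several places; the counting options of the other table are not given in the sources used here, but its 59428 annotation rows are the same.

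Each line was fitted on its own with edgeR 4.0.16 in R 4.3.3 on all genes passing filterByExpr, with TMM scaling and glmQLFTest; p-values were adjusted by Benjamini-Hochberg over all genes tested, at 0.05. Joint fits of U937 with and without TPA, and of U937 and THP-1, gave the differences between effects. Levels in CPM use 1 TMM scale over 35 libraries, so their ratios can differ slightly from the fitted fold changes. At simulated log2 changes of 1 or 2 in either direction, 98 to 100.0% of 50 genes each were called in U937 SKO and MOLM-13 SKO. The simulation gave every gene the same fixed spread and changed only a small set of well-counted genes. It therefore checks the code and does not show how many changes were found in the data. Fingers and KRAB patterns were read from GENCODE 29 coding sequences, and promoters from RefSeq (GRCh38.p14). Alternatives were DESeq2 1.42.0 size factors and test, no filter, a block for the replicate number, fits of only the groups compared, each library left out, a level floor and members that overlap no other row. The named genes were up to 3 of the largest rises and falls per comparison among called members whose average log2 CPM reached 1 and whose groups do not overlap, members called the same way in at least 3 lines, the highest per kb of each subcluster, and members with a known role. ZNF264, ZNF234, ZNF841, ZNF836 and ZNF541 in U937, ZNF404, ZNF599 and the genes of the off runs were named after their values were seen. Members and lists were chosen with earlier results of these data known. Genes overlapping an opposite-strand row and near-identical paralogs remain uncertain.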

Additional observations from a re-analysis of the deposited data

Results flagged for a closer look

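The effect of a genotype differed between treatments or lines for the following genes, by edgeR's quasi-likelihood test of the difference itself in a joint fit, with adjusted p under 0.05. Each value is a difference of log2 fold changes against sgControl.

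For the SKO effect in U937 with TPA minus that in untreated U937, 17 of 120 tested members had a higher difference and 18 a lower one, where 19.6% and 18.1% of all 16989 genes did. ZNF296 stood at 0.93, ZNF584 at 0.676 and ZNF614 at 0.583. ZNF470 stood at -1.16, ZNF808 at -0.917 and ZNF792 at -0.81. The ZNF792 value did not pass in 4 of the other settings or without any 1 of 10 libraries.

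For the DKO effect in U937 with TPA minus that in untreated U937, 12 members had a higher difference and 33 a lower one, where 21.7% and 27.8% of all genes did. The count of 12 was 6 without U937 DKO replicate 2. ZNF616 stood at 0.937, ZNF766 at 0.678 and ZNF536 at 0.674, and ZNF470 at -1.25, ZNF792 at -1.11 and ZNF420 at -1.07. S5 had 18 of 46 genes with a lower difference, and S4 had 8 of 25 with a higher one and 3 with a lower one.

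For the SKO effect in U937 minus that in THP-1, 11 of 145 members had a higher difference and 58 a lower one (median -0.30), where 24.1% and 22.7% of all 18715 genes did. ZNF836 stood at 3.16, ZNF536 at 1.78 and ZNF234 at 1.72, and ZNF264 at -5.06, ZNF528 at -4.18 and ZNF765 at -2.52. For the DKO effect in U937 minus that in THP-1, 17 members had a higher difference and 54 a lower one (median -0.38), where 29.7% and 24.7% of all genes did. ZNF283 stood at 4.47, ZNF234 at 3.86 and ZNF836 at 3.22, and ZNF264 at -9.2, ZNF765 at -5.54 and ZNF600 at -4.34.

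Several of these values rest on 1 library. For the SKO effect, ZNF765 was -0.567 without U937 sgControl replicate 2, ZNF234 was 0.843 without U937 SKO replicate 2 and 1.1 without U937 sgControl replicate 2, and none of these passed the test. ZNF264 was -8.92 without U937 SKO replicate 3, the library that held its SKO reads. For the DKO effect, ZNF765 was -3.54 without U937 sgControl replicate 2 and ZNF283 was 3.09 without U937 DKO replicate 3, and neither passed. ZNF528 no longer passed without any 1 of 5 U937 libraries, nor did ZNF600 without any 1 of 5. The values of ZNF528, ZNF765, ZNF600 and ZNF283 rest on a few reads in U937, where no library reached 0.3 CPM of any of them, and those of ZNF234 and ZNF836 on sgControl and SKO means of at most 0.302 CPM there. ZNF528 had 17.4 to 19.7 CPM in THP-1 DKO, 6.81 to 9.06 CPM in THP-1 SKO and 7.34 to 8.59 CPM in THP-1 sgControl. ZNF264 had 0 reads in U937 DKO, so its -9.2 depends on the prior count of the fit. The digit strings in the library names differ between the U937 and THP-1 groups, and a clone is named for only some groups. The part of batch and clone in these differences cannot be told apart from the line.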

How the results depend on the processing

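No count of members called changed by over 1.5 times under DESeq2 size factors, the DESeq2 test or only the groups compared. With DESeq2 scaling the median of all genes moved by at most 0.0611. Numbers shared by replicates did not pair the libraries: same-number correlations of deviations ran between -0.0648 and 0.172, with no set of pairs all over 0.1. With the replicate number as a block all 36 counts stayed within 1.5 times, such as 94 higher and 16 lower in THP-1 DKO and 16 and 53 in U937 SKO.

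Counts over members that overlap no other row are smaller because at most 45 of 158 remain. In higher and lower order they were 7 and 14 for U937 SKO, 11 and 7 for U937 DKO, 16 and 3 for U937 DKO against SKO, 9 and 6 for THP-1 SKO, 29 and 6 for THP-1 DKO, 26 and 3 for THP-1 DKO against SKO, 5 and 18 for U937 TPA SKO, 7 and 11 for U937 TPA DKO, 14 and 4 for U937 TPA DKO against SKO, 23 and 1 for MOLM-13 SKO and 16 and 6 for OCI-AML-3 DKO. They were 6 and 9, 5 and 16, and 6 and 15 for TPA in sgControl, SKO and DKO, 5 and 7 and 4 and 9 for the SKO and DKO effects with TPA minus untreated, and 3 and 17 and 7 and 16 for the SKO and DKO effects in U937 minus THP-1. As shares of members tested, THP-1 DKO had 65.9% higher and 13.6% lower, against 62.8% and 10.8% over the 148 tested. Restricted to the subclusters, the non-ZNF comparator had a median of 0.703 in THP-1 DKO and 0.134 in THP-1 SKO. In THP-1 DKO against SKO it was 0.482. It was -0.224 in U937 SKO, 0.0651 in U937 DKO, 0.192 in U937 DKO against SKO and 0.288 in MOLM-13 SKO. In THP-1 and in untreated U937, non-ZNF neighbours thus shifted as far as the ZNF genes or nearly so.

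Under the level floor of a mean log2 CPM of 2, fewer genes gave 11 higher in U937 SKO, 9 higher and 31 lower in U937 TPA SKO and 24 higher in U937 TPA DKO against SKO. With no filter on low counts the lower count was 10 in OCI-AML-3 DKO and 11 for the SKO effect with TPA minus untreated. The cause was not tested. Medians near 0 also moved. For the SKO effect with TPA minus untreated the members' median was 0.0355 under the level floor and 0.0469 with no filter. With no filter it was -0.0192 for the DKO effect with TPA minus untreated and -0.0212 for U937 TPA DKO. In U937 DKO it was 0.000633 under the level floor and -0.00467 with no filter.

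Leaving out each library in turn gave the following ranges of members higher and lower: 13 to 17 and 49 to 53 for U937 SKO, 26 to 33 and 25 to 31 for U937 DKO, 36 to 45 and 6 to 11 for U937 DKO against SKO, 32 to 36 and 12 to 15 for THP-1 SKO, 84 to 93 and 12 to 16 for THP-1 DKO, 65 to 77 and 11 to 16 for THP-1 DKO against SKO. They were 7 to 16 and 45 to 50 for U937 TPA SKO, 26 to 29 and 39 to 44 for U937 TPA DKO, 35 to 43 and 18 to 21 for U937 TPA DKO against SKO, 62 to 70 and 10 to 12 for MOLM-13 SKO, 25 to 51 and 8 to 11 for OCI-AML-3 DKO. They were 10 to 14 and 38 to 45 for TPA against untreated, U937 sgControl, 11 to 15 and 48 to 55 for TPA against untreated, U937 SKO, 17 to 23 and 51 to 56 for TPA against untreated, U937 DKO, 14 to 20 and 13 to 19 for SKO effect, TPA minus untreated U937, 6 to 14 and 27 to 33 for DKO effect, TPA minus untreated U937, 8 to 12 and 53 to 64 for SKO effect, U937 minus THP-1, 14 to 20 and 48 to 61 for DKO effect, U937 minus THP-1.

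Of 1794 values of the named genes under the alternatives, 1756 kept their direction and their side of the threshold, 38 lost the call and 0 reversed. The lost calls belong to ZNF649, ZNF460 and ZNF584 in OCI-AML-3 with 1 DKO library left out, to ZNF461 under TPA in sgControl, and to differences between effects for ZNF792, ZNF234, ZNF528, ZNF765, ZNF283 and ZNF600. With 2 libraries per group, MOLM-13 and OCI-AML-3 have 2 residual degrees of freedom, and a left-out library leaves a lone one that is assumed to vary like the others.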

Other observations

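Other zinc finger genes of the span without a numbered ZNF name were few. Of 18 such genes listed, among them PEG3, ZFP28 and MZF1, 17 were found in the tables and 6 to 10 were tested in a comparison. In THP-1 DKO 4 of 10 were higher and 2 lower (median 0.23), in MOLM-13 SKO 3 of 6 were higher (median 0.34), and in U937 SKO 3 of 7 were lower (median -0.22).

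The number of zinc fingers and the CpG ratio of the promoter were only weakly related to the fold changes across members whose average log2 CPM reached 1. Spearman's rho between fingers and log2 fold change was 0.11 in THP-1 DKO (126 members), -0.062 in MOLM-13 SKO (97 members), 0.16 in OCI-AML-3 DKO (117 members) and 0.2 in U937 SKO (90 members). Between the CpG ratio and the log2 fold change it was -0.15 in THP-1 DKO (112 members) and -0.048 in MOLM-13 SKO (86 members). These are descriptions across genes that share libraries.

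ZNF404 of S3, at a low level in every line, was higher in THP-1 SKO (log2 fold change 2.60, edgeR adjusted p = 7.3e-06), THP-1 DKO (3.17, adjusted p = 1.2e-07), MOLM-13 SKO (1.25, adjusted p = 0.0097) and OCI-AML-3 DKO (1.57, adjusted p = 0.038). ZNF599 of S1, which carries the S5 word, had 0 reads in THP-1 SKO and a mean of 0.633 CPM in THP-1 sgControl, at least 37.6-fold lower.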
